A study of Bos taurus with 9 samples.

Results

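The 9 genes described here are the desmosomal cadherins DSG2, DSG3, DSC2 and DSC3, the desmosomal plaque genes JUP, PKP1, PKP3 and DSP, and CSTA, which encodes cystatin A. They are the rows with these names among the 20679 genes of the deposited tables, and they were selected on their values in the 9 libraries that are compared here. Their own values are therefore given as a description, and no p-value is printed for them. The libraries came from fragments of bovine (Bos taurus) uterine gland, kept in Matrigel as 3D cultures until day 5. There were 3 groups of 3 libraries. The CYST group received no EGF and formed cysts, the MAT group received EGF in Matrigel and formed UG-LIKE structures, and the MAT+COL group received EGF in Matrigel that also contained type I collagen. All groups shared the medium with bovine serum albumin, ascorbic acid, transferrin, sodium selenite and insulin. The labels call the cells epithelial, give replicate numbers 1 to 3 in each group, and name neither the animals nor their ages. The study isolated the fragments enzymatically from uteri collected at an abattoir.

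Desmosomes are spot-like junctions that anchor the keratin filaments of neighbouring epithelial cells to each other. Desmogleins (DSG) and desmocollins (DSC) are cadherins that bind across the gap between the cells. Inside the cell, plakoglobin (JUP) and the plakophilins (PKP) hold their tails, and desmoplakin (DSP) links this plaque to keratins. Simple epithelia such as glands use DSG2 and DSC2, whereas DSG3, DSC3 and PKP1 are known from stratified epithelia such as epidermis. Cystatin A is a cytosolic inhibitor of cysteine cathepsins, abundant in keratinocytes, where it is a component of the cornified envelope and is needed for normal cell-cell adhesion.

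Libraries held between 6568968 and 17948600 reads on genes, with 8424028 to 16829884 in CYST, 6568968 to 17936445 in MAT and 16665013 to 17948600 in MAT+COL. The summed TPM (a transcript level scaled for gene length and library size) of 6 gland epithelium markers was 16649 to 18423 in CYST, 27613 to 43306 in MAT and 28181 to 38520 in MAT+COL, and none of the 6 was at 0 in any group. The 8 stromal fibroblast markers summed to 2021 to 4566 TPM, 755 to 3002 TPM and 1905 to 3506 TPM in the same order. In MAT versus CYST, 6 of 6 epithelial markers had a positive Log2FC (median 0.79) and 0 of 8 stromal markers did (median -0.68), with none called in either list. Most of the epithelial sum was KRT8 and KRT19, with means of 8314 and 7751 TPM in CYST and 15490 and 17274 TPM in MAT. KRT18 averaged 483 TPM in CYST and 544 TPM in MAT, and FOXA2 averaged 2.62 and 5.53 TPM. The 5 smooth muscle markers summed to 118 to 169 TPM in CYST, 37.7 to 86.9 TPM in MAT and 66.3 to 85.5 TPM in MAT+COL. Sums for 6 endothelial, 7 immune and 4 ciliated cell markers were at most 48.6 TPM in every library, the immune marker CD79A was at 0 in all 9 libraries, and CD3E was at 0 in CYST. The part of cell composition in the differences below was not tested. In such bulk samples, fewer cells of a type and less RNA per cell cannot be told apart.

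**Figure D1:**
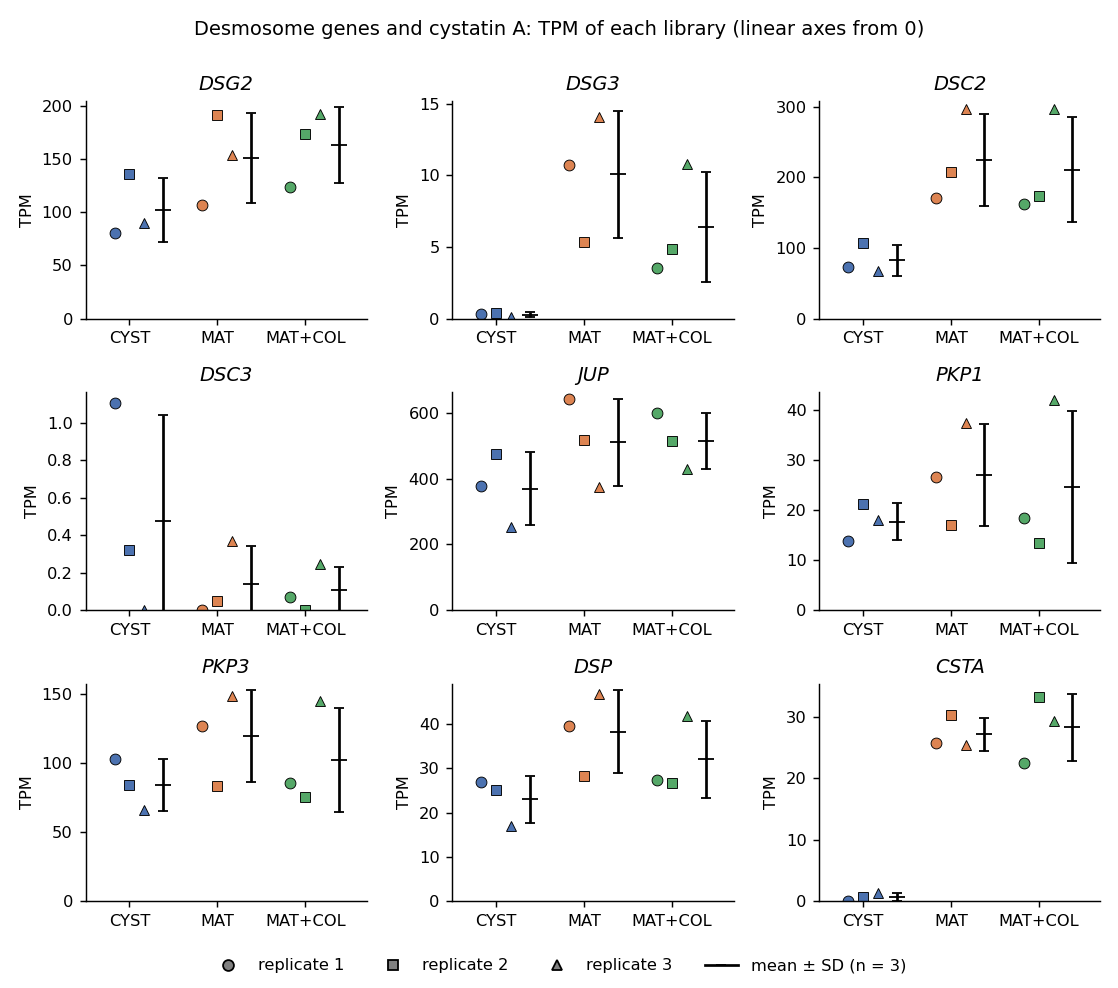
TPM of the 9 genes in each library, on linear axes from 0 that differ between panels. Points are libraries (circle, square and triangle for replicates 1, 2 and 3) and bars are mean ± SD of 3 libraries, cut at 0. CSTA and DSG3 stood near 0 in CYST, at no more than 1.38 and 0.420 TPM, and DSC2 had at least 163 TPM in every MAT and MAT+COL library.

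Among the desmogleins, DSG2 was the abundant member and DSG3 the member with the larger difference. DSG2 stood at 80.6, 136 and 89.8 TPM in CYST replicates 1, 2 and 3, at 107, 192 and 154 TPM in MAT, and at 124, 173 and 192 TPM in MAT+COL. Only CYST replicate 2 reached into the range of the EGF groups, so the groups overlapped. The means were 102.2 ± 29.7, 150.9 ± 42.3 and 163.0 ± 35.4 TPM (SD, n = 3 each), and the Log2FC was 0.56 (SE 0.27) for MAT and 0.63 (SE 0.27) for MAT+COL against CYST.

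DSG3, the desmoglein of the basal layers of stratified epithelium, had 0.340, 0.420 and 0.105 TPM in CYST. It had 10.7, 5.34 and 14.1 TPM in MAT and 3.55, 4.83 and 10.8 TPM in MAT+COL. No library with EGF overlapped CYST, and the lowest MAT library was 12.7 times and the lowest MAT+COL library 8.46 times the highest CYST library. The Log2FC was 5.11 (SE 0.59) for MAT and 4.43 (SE 0.68) for MAT+COL. These levels rested on few reads in CYST, with 5, 12 and 2 reads against 123, 163 and 323 in MAT and 105, 147 and 309 in MAT+COL. Pooled over the libraries and scaled to their totals, the reads gave a ratio to CYST of 30.1 in MAT and 19.8 in MAT+COL. These pooled ratios are descriptions and leave out the spread between libraries.

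Even with this difference DSG3 remained a small part of the desmoglein transcripts. Its share of the summed TPM of DSG1, DSG2, DSG3 and DSG4 was 0.117 to 0.420% in CYST, 2.71 to 9.10% in MAT and 2.71 to 5.30% in MAT+COL, while DSG2 made up at least 90.9% in every library. DSG1, the desmoglein of the upper layers of epidermis, had 3 reads in all of CYST, 2 in MAT and 1 in MAT+COL. DSG4 had 2, 0 and 1 reads in the same order, so a difference in either gene was not detectable at this depth.

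DSC2 was the main desmocollin in all groups. It stood at 72.8, 107 and 67.6 TPM in CYST, at 170, 208 and 297 TPM in MAT, and at 163, 174 and 297 TPM in MAT+COL. Every EGF library was above every CYST library, by a factor of at least 1.59 in MAT and 1.52 in MAT+COL. The means were 82.5 ± 21.4, 224.9 ± 64.9 and 211.1 ± 74.4 TPM (SD, n = 3 each), and the Log2FC was 1.46 (SE 0.27) in MAT and 1.33 (SE 0.31) in MAT+COL. DSC2 made up 97.5 to 99.5% of the summed TPM of DSC1, DSC2 and DSC3 in CYST, 98.8 to 99.2% in MAT and 98.5 to 99.3% in MAT+COL.

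The balance of the main desmocollin to the main desmoglein set CYST apart from the EGF groups, which overlapped each other. The ratio of DSC2 to DSG2 TPM was 0.90, 0.79 and 0.75 in CYST, 1.59, 1.08 and 1.93 in MAT, and 1.32, 1.00 and 1.55 in MAT+COL. DSG2 thus had the higher TPM in all 3 CYST libraries, and DSC2 had the higher TPM in all 6 libraries with EGF.

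DSC3, a desmocollin of the basal layers of stratified epithelium, had the opposite order of group means and very few reads. It had 1.10, 0.321 and 0 TPM in CYST, 0, 0.0462 and 0.369 TPM in MAT, and 0.0716, 0 and 0.246 TPM in MAT+COL. The groups overlapped, since each held a library at 0, and the CYST mean rested on replicate 1. The 36 reads of CYST, against 14 of MAT and 13 of MAT+COL, were 23, 13 and 0 by library. DSC3 passed the filter on low counts only in MAT+COL versus CYST, where its Log2FC was -2.06 (SE 1.52). It moved from -3.64 without MAT+COL replicate 3 to -0.62 without CYST replicate 1.

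These cadherins and their relatives lie side by side in the deposited coordinates (ARS-UCD2.0). The 7 genes of the cluster span 533.893 kb of chromosome 24, from 25602973 to 26136865. The 4 desmogleins lie on the minus strand, with DSG2 (ENSBTAG00000021923) at 25602973 to 25654421 beside DSG3 (ENSBTAG00000039483) at 25667567 to 25698964. The 3 desmocollins lie on the plus strand, with DSC2 (ENSBTAG00000040584) at 26027713 to 26065895 beside DSC3 (ENSBTAG00000015238) at 26083228 to 26136865. Neighbours in this cluster did not have like levels, since the TPM of DSG3 was between 0.00117 and 0.100 of that of DSG2 in the same library. The third desmocollin, DSC1, is no member of the selected set. It had 0.789, 1.05 and 0.324 TPM in CYST, 1.49, 2.44 and 1.97 TPM in MAT and 1.89, 2.62 and 1.97 TPM in MAT+COL. CYST did not overlap the EGF groups, which overlapped each other, but its Log2FC of 1.48 (SE 0.52) in MAT versus CYST did not pass the edgeR quasi-likelihood test (adjusted p = 0.160).

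**Figure D2:**
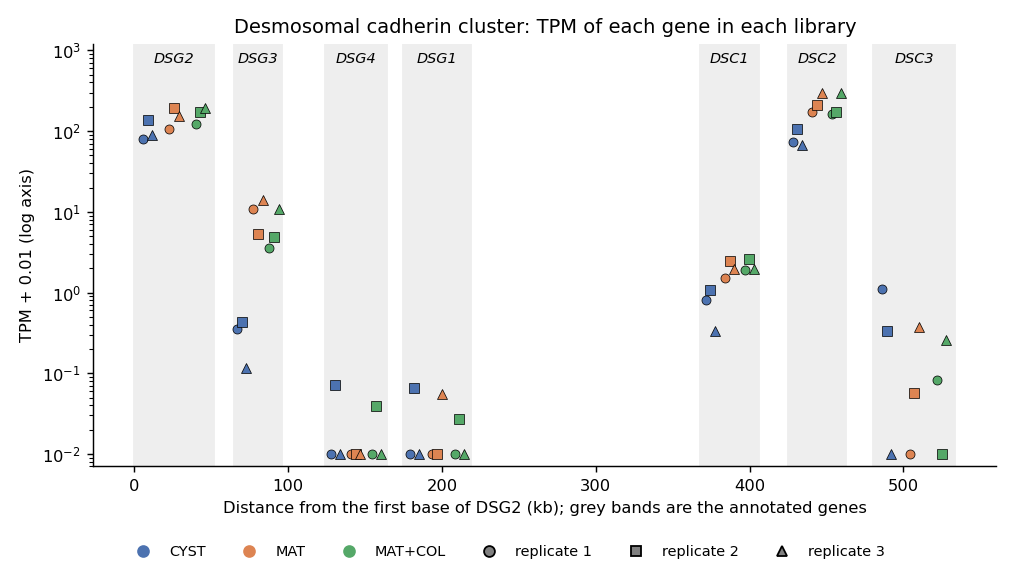
TPM plus 0.01 of the 7 cadherin genes in each library (log axis) at their distance in kb from the first base of DSG2, with grey bands for the annotated genes. DSG2 and DSC2 had at least 67.6 TPM in every library, DSG3 separated CYST from the other groups, and DSG1 and DSG4 had at most 3 reads in a group.

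JUP, plakoglobin, which also serves adherens junctions, was the most abundant of the 9 genes by TPM in every library. It stood at 380, 475 and 254 TPM in CYST, at 642, 517 and 376 TPM in MAT, and at 600, 517 and 431 TPM in MAT+COL. MAT replicate 3 lay below the highest and above the lowest CYST library, and the groups overlapped. The Log2FC was 0.48 (SE 0.24) in MAT and 0.43 (SE 0.20) in MAT+COL.

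PKP3, the main plakophilin of these libraries, had 103, 84.0 and 66.1 TPM in CYST, 127, 83.6 and 149 TPM in MAT, and 86.0, 75.4 and 145 TPM in MAT+COL. PKP1, which is known from suprabasal layers of epidermis, had 13.8, 21.2 and 18.0 TPM in CYST, 26.6, 17.04 and 37.4 TPM in MAT, and 18.4, 13.4 and 42.0 TPM in MAT+COL. Both overlapped between all groups, and replicate 3 was the highest library in MAT and in MAT+COL for both. The Log2FC in MAT was 0.51 (SE 0.25) for PKP3 and 0.60 (SE 0.33) for PKP1. In MAT+COL it was 0.25 (SE 0.30) and 0.44 (SE 0.45), and without MAT+COL replicate 3 it was -0.17 for PKP3 and -0.28 for PKP1, so that library set the direction of both.

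The shares of the plakophilins overlapped between the groups. PKP3 took 67.3 to 76.0% of the summed TPM of PKP1, PKP2 and PKP3 in CYST, 66.3 to 73.2% in MAT and 65.2 to 68.8% in MAT+COL. PKP1 took 10.2 to 19.0%, 13.5 to 18.3% and 12.1 to 19.9%.

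JUP (ENSBTAG00000017685) lies on chromosome 19 from 41961520 to 41985636, PKP1 (ENSBTAG00000046350) on chromosome 16 from 79787198 to 79827046, and PKP3 (ENSBTAG00000048098) on chromosome 29 from 50878618 to 50888551. DSP (ENSBTAG00000015106) lies on chromosome 23 from 47824109 to 47868112.

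DSP, desmoplakin, had 27.0, 25.02 and 17.1 TPM in CYST, 39.6, 28.3 and 46.8 TPM in MAT, and 27.5, 26.6 and 41.9 TPM in MAT+COL. The MAT libraries were all above CYST, but the lowest of them exceeded the highest CYST library by a factor of only 1.05, and MAT+COL overlapped CYST. The means were 23.0 ± 5.26, 38.3 ± 9.31 and 32.0 ± 8.58 TPM (SD, n = 3 each), and the Log2FC was 0.75 (SE 0.23) in MAT and 0.45 (SE 0.25) in MAT+COL.

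CSTA, the only member outside the junction itself, was close to absent in CYST and present in every library with EGF. It had 0, 0.689 and 1.38 TPM in CYST, 25.8, 30.3 and 25.5 TPM in MAT, and 22.4, 33.2 and 29.2 TPM in MAT+COL. The EGF libraries lay in a narrow range, with means of 27.2 ± 2.69 and 28.3 ± 5.43 TPM (SD, n = 3 each) against 0.691 ± 0.692 TPM in CYST, and the lowest MAT library was 18.4 times the highest CYST library. The Log2FC was 5.13 (SE 0.79) in MAT and 5.15 (SE 0.79) in MAT+COL.

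The CSTA differences too rested on few reads, 0, 3 and 4 in CYST, 45, 141 and 89 in MAT, and 101, 154 and 128 in MAT+COL. Pooled and scaled to library totals, the ratio to CYST was 36.9 in MAT and 36.8 in MAT+COL, a description that leaves out the spread between libraries. On a log2(TPM + 1) scale, which shrinks differences of low genes, the difference was 4.14 for CSTA and 3.02 for DSG3 in MAT. CSTA (ENSBTAG00000062313) lies on the plus strand of chromosome 1, from 66773102 to 66783922, far from the cadherin cluster.

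**Figure D3:**
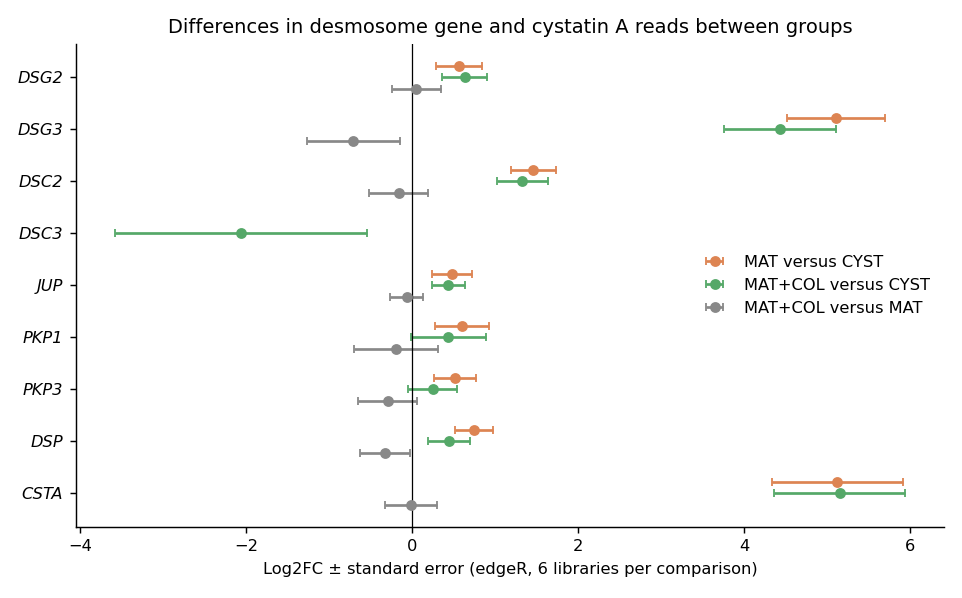
Log2FC with its standard error for the 9 genes, from edgeR fits of 6 libraries per comparison. CSTA and DSG3 stood at 4.43 to 5.15 in the comparisons with CYST and the 4 plaque genes at 0.25 to 0.75. DSC3 has a value only in MAT+COL versus CYST, where it passed the filter on low counts.

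The study's criteria for a differentially expressed gene were an absolute Log2FC above 1, an adjusted p under 0.05 and a minimal TPM above 1. The paper does not say in which libraries the TPM must hold. Here all 6 libraries had to exceed 1 TPM, and the adjusted p came from edgeR. The paper, with its own analysis, reported more genes for MAT versus CYST than this test called. By these criteria 175 of 12074 genes tested (1.45%) were called in MAT versus CYST, 87 higher and 88 lower, and 216 (1.79%) by the adjusted p alone. Across 12858 genes, same-numbered libraries deviated together from their group means, and a fit that blocked on the replicate number gave 726 and 1277. Of the 9 genes, 8 were tested, DSC2 met all criteria, and DSG3 and CSTA met the adjusted p and the Log2FC but not the TPM in CYST. The block left these counts as they were. Both DSG3 and CSTA passed the filter on low counts through their EGF libraries. With a single library left out, DSC2 did not meet the adjusted p in any run of this comparison. DSG3 met it without CYST replicate 3, MAT replicate 2 or MAT replicate 3, and CSTA only without CYST replicate 3. Since the genes were selected on these values, the counts only describe how they stood in the fit across all genes, and nothing follows from them.

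In MAT+COL versus CYST, 141 of 12509 genes tested (1.13%) were called, and 186 (1.49%) by the adjusted p alone, with 433 and 658 under the replicate block. All 9 genes were tested, DSG3 and CSTA met the adjusted p alone, and none met all criteria. Under the block DSC2 met all of them. The comparisons of MAT and of MAT+COL with CYST share the CYST libraries and are not independent of each other. How many of the 9 genes met the adjusted p turned on single libraries, as did the calls over all genes. It was 0 without CYST replicate 1 or 2 in both comparisons. It was also 0 without MAT replicate 1 in the first and without MAT+COL replicate 1 or 2 in the second. In these same runs the calls over all genes by all criteria fell from 175 to 6, 5 and 8 in the first comparison. In the second they fell from 141 to 7, 3, 5 and 3. The p-values measure the spread between these libraries, and the labels do not name the animals, although the study's text speaks of individuals for the MAT and MAT+COL libraries.

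Type I collagen was compared within the EGF groups. In MAT+COL versus MAT, 0 of 12470 genes (0%) were called by either rule with edgeR, and 0 with DESeq2. Of these genes, 51 had an unadjusted p under 0.05, and 618 with the replicate block. The 8 genes of the set that were tested had Log2FC values from -0.71 (SE 0.56) for DSG3 to 0.05 (SE 0.29) for DSG2, with -0.01 (SE 0.31) for CSTA and -0.16 (SE 0.35) for DSC2. All overlapped between MAT and MAT+COL.

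Libraries with the same replicate number showed a lower log2 CPM (counts scaled to library size) of DSG3 in MAT+COL than in MAT in all 3 pairs, by -1.70, -0.19 and -0.42. DSC2, PKP3 and DSP were also lower in all 3 pairs, whereas CSTA was lower in the pair of replicate 1 and higher in the other two. Against CYST, same-numbered MAT libraries were higher in all 3 pairs for DSG2, DSG3, DSC2, JUP, PKP3, DSP and CSTA, and in 2 of 3 for PKP1, with -0.21 in replicate 2. In MAT+COL this held in all 3 pairs for DSG2, DSG3, DSC2, JUP and CSTA, in 2 for PKP1 and DSP, and in 1 for PKP3. The members were selected on these values, and the share of all genes with such pairs is not given here. Nothing therefore follows from these pairs, nor from the lack of overlap of single members with CYST. Small differences depended on the measure. By TPM, PKP3 in MAT replicate 2 was 0.995 of CYST, and DSP in MAT+COL replicate 1 was 1.02 of CYST. DSC2 in MAT+COL replicate 3 was 1.0007 of MAT.

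Within the groups, the members did not vary as a block. As deviations from group means over the 9 libraries, which share depth and library preparation, DSP and PKP3 had a Pearson r of 0.98 and DSP and DSG3 of 0.94. DSG3 and PKP3 had 0.85, PKP1 and PKP3 had 0.82, and DSC2 and PKP1 had 0.80. JUP was negatively related to each of the other 8 genes, between -0.54 for DSC2 and -0.12 for DSG3. In MAT and MAT+COL, replicate 3 was above its group mean for DSP, PKP3, DSG3, PKP1, DSC2 and DSG2 and below it for JUP. In CYST, replicate 3 was instead below its group mean for DSP, PKP3, DSG3 and DSC2.

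CSTA followed none of them closely, with 0.57 for DSG2 as its highest within-group r. The ratio of JUP to DSP TPM shows the opposed movement. It was 14.07, 18.99 and 14.87 in CYST, 16.20, 18.26 and 8.03 in MAT, and 21.85, 19.42 and 10.29 in MAT+COL, so that replicate 3 was the lowest library in both EGF groups and the groups overlapped.

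**Figure D4:**
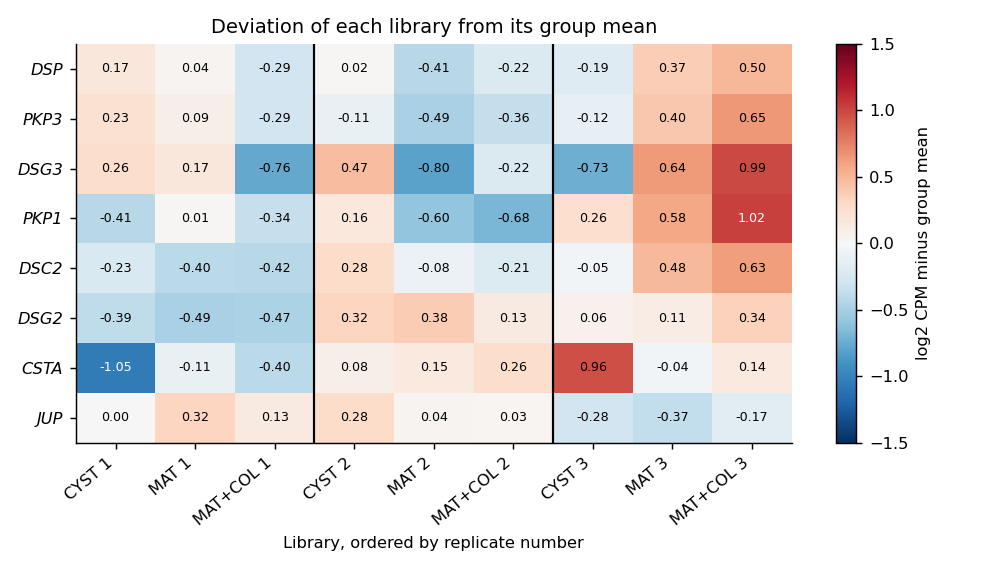
Deviation of each library's log2 CPM from its group mean for 8 of the 9 genes (DSC3 is left out for its low reads), with libraries ordered by replicate number; red is above and blue below the mean. Replicate 3 of MAT and MAT+COL was high for PKP1 (0.58 and 1.02) and DSG3 (0.64 and 0.99) and low for JUP (-0.37 and -0.17).

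Other genes of the junction and of neighbouring systems were taken from hand-written lists. The remaining desmosome list had 7 genes, of which 5 were tested. All 5 were positive in MAT versus CYST (median Log2FC 0.88 against 0.01 over all genes tested), and 0 were called. PERP, a desmosomal membrane protein, had 373, 502 and 425 TPM in CYST, 863, 827 and 907 TPM in MAT and 932, 783 and 856 TPM in MAT+COL. The MAT range lay inside that of MAT+COL, and CYST overlapped neither. The Log2FC of 0.99 (SE 0.19) in MAT missed the threshold by edgeR (adjusted p = 0.0503) and passed it with the replicate block (adjusted p = 0.0165). In MAT+COL its Log2FC was 0.91 (SE 0.18, edgeR adjusted p = 0.0581; 0.0398 with the block). KAZN, a gene of the kazrin protein of desmosomes, had 0.88 (SE 0.51, edgeR adjusted p = 0.374) in MAT. PKP2, the plakophilin of simple epithelia and heart, had 0.62 (SE 0.26, edgeR adjusted p = 0.235) and PKP4 had 0.13 (edgeR adjusted p = 0.806), and both were added to the text after their values were seen.

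Of 24 genes of the cornified envelope, the protein shell of terminally differentiated keratinocytes, 19 had a row and 11 were tested. In MAT versus CYST, 10 of the 11 were positive (median Log2FC 1.98), and 1 was called. Some tested genes had similar means in CYST and MAT: PPL with 19.1 and 18.7 TPM, TGM1 with 48.0 and 52.9 TPM, and S100A10 with 2869 and 3075 TPM. Of those not tested, SPRR4, CNFN, CASP14 and LCE3C were at 0 in every group. TGM3, CDSN, SBSN and CRNN averaged at most 0.410 TPM in any group. These genes too were named after their values were seen. The called gene was SCEL, sciellin, which had 33.4, 37.9 and 28.9 TPM in CYST, 93.0, 218 and 86.3 TPM in MAT and 112, 178 and 91.5 TPM in MAT+COL. SCEL rose by a Log2FC of 1.98 (SE 0.35, edgeR adjusted p = 0.0450) in MAT and 1.87 (SE 0.26, edgeR adjusted p = 0.0308) in MAT+COL. The adjusted p in MAT ranged from 0.0446 to 0.167 when a library was left out, and passed the threshold only without MAT replicate 2 or 3. In MAT+COL it ranged from 0.0336 to 0.149, and passed only without MAT+COL replicate 3.

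With the replicate block 4 envelope genes were called in MAT, SCEL with SPRR3, EVPL and TCHH, and IVL passed the adjusted p as well; these 4 further genes were named after their values were seen. SPRR3, a small proline-rich envelope precursor, had 26.9, 31.9 and 299 TPM in CYST and 1054, 1429 and 2669 TPM in MAT, a Log2FC of 3.69 (SE 1.04, edgeR adjusted p = 0.101; 0.00506 with the block). EVPL, envoplakin, a relative of desmoplakin in the envelope, had 1.75, 1.82 and 6.24 TPM in CYST and 17.2, 20.1 and 32.7 TPM in MAT, a Log2FC of 2.74 (SE 0.62, edgeR adjusted p = 0.0639; 0.00320 with the block). CYST replicate 3 was the highest CYST library for both, as it was for CSTA. TCHH, trichohyalin, had 15.3, 9.09 and 27.98 TPM in CYST and 64.8, 130.4 and 126.4 TPM in MAT, a Log2FC of 2.54 (SE 0.52, edgeR adjusted p = 0.0540; 0.0105 with the block). IVL, involucrin, had a Log2FC of 2.40 (SE 0.74, edgeR adjusted p = 0.124; 0.0388 with the block). The median of the list was 1.87 in MAT+COL versus CYST, and the block called 4 genes.

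Hemidesmosomes anchor keratins to the basement membrane rather than to a neighbouring cell. All 9 genes of their list were tested, and all 9 were positive in MAT versus CYST (median Log2FC 0.80). LAMA3, a chain of laminin-332, had 88.8, 89.1 and 133 TPM in CYST, 389, 372 and 557 TPM in MAT and 278, 292 and 445 TPM in MAT+COL. It rose by a Log2FC of 2.04 (SE 0.32, edgeR adjusted p = 0.0337) in MAT, a call that held under leave-one-out only without CYST replicate 3, with an adjusted p of 0.0140 to 0.150. In MAT+COL it had 1.62 (SE 0.34), past the threshold only with the block (edgeR adjusted p = 0.0623; 0.0157 with the block). COL17A1, a transmembrane collagen of hemidesmosomes that was named after its values were seen, resembled DSG3 and CSTA in being near 0 in CYST, with 1.13, 0.195 and 0.330 TPM. It had 17.3, 11.3 and 23.98 TPM in MAT and 10.9, 6.83 and 24.5 TPM in MAT+COL. Its Log2FC was 5.08 (SE 0.66, edgeR adjusted p = 0.0227) in MAT, where without CYST replicate 2 and without MAT replicate 1 the adjusted p was 0.0702 and 0.0953, and 4.73 (SE 0.80, edgeR adjusted p = 0.0416) in MAT+COL, where the adjusted p ranged from 0.0511 to 0.128 when a library was left out.

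Keratins, the filaments that desmosomes hold, did not move together. Of 10 keratins tested 6 were positive in MAT versus CYST (median Log2FC 0.27), and 0 were called. KRT19, a keratin of simple epithelia, had 1.13 (SE 0.26, edgeR adjusted p = 0.0662; 0.0318 with the block). KRT17 had 1.14 (SE 0.77, edgeR adjusted p = 0.451). KRT5, the keratin of basal cells, had 1.04, 12.6 and 11.7 TPM in CYST and 0, 1.30 and 5.62 TPM in MAT, a Log2FC of -1.86 (SE 1.25, edgeR adjusted p = 0.449; 0.0413 with the block). The basal cell regulator TP63 was at 0 in 8 of the 9 libraries and at 0.0846 TPM in MAT replicate 2.

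**Figure D5:**
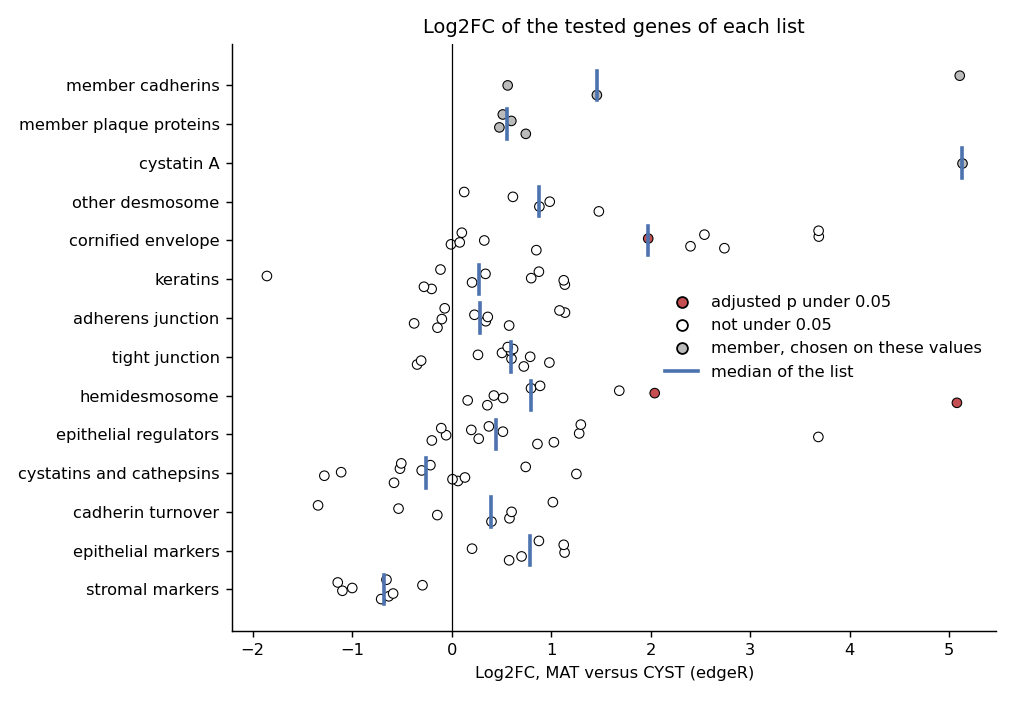
Log2FC of MAT versus CYST for the tested genes of each list; a point is a gene, red marks an edgeR adjusted p under 0.05 among genes outside the selected set, grey the selected genes, and the blue bar the median of the list. The median was 1.98 for the cornified envelope, 0.88 for the other desmosome genes and -0.68 for the stromal markers; smooth muscle, endothelial, immune and ciliated markers are not plotted.

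Adherens junction genes (10 tested) had a median Log2FC of 0.29 and tight junction genes (11 tested) of 0.59 in MAT versus CYST, with 0 called in both. NECTIN4, an adhesion molecule of adherens junctions, had 1.08 (SE 0.22, edgeR adjusted p = 0.0556; 0.0307 with the block), NECTIN3 had 1.14 (SE 0.36, edgeR adjusted p = 0.126), and CDH1, E-cadherin, had 0.58 (SE 0.20, edgeR adjusted p = 0.157). The tight junction genes with the largest values were CLDN3 at 0.98 (SE 0.33, edgeR adjusted p = 0.148), F11R at 0.79 (SE 0.25, edgeR adjusted p = 0.124; 0.0393 with the block) and CGN at 0.73 (SE 0.17, edgeR adjusted p = 0.0679; 0.0392 with the block).

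Of 16 regulators of stratified epithelium 12 were tested, with a median of 0.45 and 0 called. GRHL3, a grainyhead factor of the epidermal barrier, had 0, 0.152 and 0.257 TPM in CYST and 0, 1.06 and 4.51 TPM in MAT (Log2FC 3.69, SE 1.55, edgeR adjusted p = 0.230; 0.0333 with the block). ZNF750, a factor of epidermal differentiation, had 13.7, 18.7 and 34.9 TPM in CYST and 56.4, 57.3 and 60.7 TPM in MAT (Log2FC 1.30, SE 0.40, edgeR adjusted p = 0.120; 0.0225 with the block). KLF4 had a Log2FC of 1.28 (SE 0.52, edgeR adjusted p = 0.213).

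Around CSTA, the list of other cystatins and of cathepsins had 12 tested genes, a median of -0.26 and 0 calls in MAT versus CYST. Cystatins inhibit the cysteine proteases among the cathepsins, so the list is not one of cystatin targets alone. CTSC, a lysosomal cysteine protease, had a Log2FC of -1.28 (SE 0.27, edgeR adjusted p = 0.0567; 0.0251 with the block), and CTSH, another, had -1.11 (SE 0.31, edgeR adjusted p = 0.102; 0.0225 with the block). CTSD, an aspartic protease that cystatins do not inhibit, had 1.25 (SE 0.30, edgeR adjusted p = 0.0713; 0.00916 with the block). The secreted cystatin CST6, named after its values were seen, was the abundant cystatin, at 2755 ± 277 TPM in CYST, 2900 ± 398 TPM in MAT and 2641 ± 308 TPM in MAT+COL (SD, n = 3 each), with a Log2FC of 0.06 (SE 0.17) in MAT.

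Genes that act on cadherin turnover (7 tested) had a median of 0.40 and 0 calls. MMP9, a secreted protease, had -1.34 (SE 0.47, edgeR adjusted p = 0.155; 0.00756 with the block). PRKCA, a kinase that acts on desmosome adhesion, had 1.02 (SE 0.43, edgeR adjusted p = 0.235) and ADAM9, a membrane protease, had 0.60 (SE 0.20, edgeR adjusted p = 0.140). The 9 lists in MAT+COL versus CYST had medians between -0.11 and 1.87, SCEL was the only gene called, and COL17A1 passed the adjusted p alone. In MAT+COL versus MAT no gene of any list was called.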

How the data were processed

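RNA of 9 cultures was sequenced from SMART-Seq libraries. After trimming, the authors aligned reads to ARS-UCD2.0 with the default settings of CLC Genomics Workbench and deposited raw counts of reads per gene and TPM values of the same 20679 genes; the annotation release and the strand setting are not given in the sources used here. Groups and replicate numbers came from the labels. No per-sample column was left unused.

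Counts were tested in R 4.3.3 with edgeR 4.0.16 (filterByExpr, minimum count of 10; TMM; quasi-likelihood test; Benjamini-Hochberg adjustment over all genes tested) on the 6 libraries of each comparison. Log2FC and its standard error are from that fit. Levels of different genes were compared only as TPM. Log2 CPM used a prior count of 2. The fit was also run on simulated data with 200 changed genes. These data held no replicate effect, so the run cannot speak to the variation between replicate numbers. Pooled ratios are given without an interval, since reads carry no molecular identifiers and the genes were selected on these values. A gene at up to 3 counts in each group was given no fold.

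Same-numbered libraries deviated together: across 12858 genes, the correlation of their deviations from group means was 0.310 to 0.406 for MAT with CYST, 0.293 to 0.361 for MAT+COL with CYST and 0.465 to 0.674 for MAT+COL with MAT, against at most 0.099 for different numbers. From this correlation across the 12858 genes, the numbers were taken to pair the libraries. Over the 9 members alone, it was -0.60, 0.03 and -0.80 for replicates 1, 2 and 3 of MAT with CYST. It was 0.33, -0.07 and -0.59 for MAT+COL with CYST and -0.11, 0.62 and 0.91 for MAT+COL with MAT. For the members, the pairing was thus not shown in the comparisons with CYST. Main calls are from the fit without the block, since the study's methods name no covariate. The block is given where the adjusted p passed the threshold only with it.

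The members and lists were chosen with earlier results of these data known. Named were the 9 members, the cadherin cluster, called genes of the lists or, where a list had none, the 3 with the largest absolute Log2FC in MAT versus CYST, and the genes most like a member; others are marked in the text. Alternatives were DESeq2 1.42.0, RLE size factors, no filter, the block, all 9 libraries, limma 3.58.1 on log2(TPM + 1), the adjusted p alone and leaving out each library. Figures were drawn with matplotlib 3.10.9. No sequences are shown, since none were at hand for these genes.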

Additional observations from a re-analysis of the deposited data

How the results depend on the processing

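The 8 genes other than DSC3 kept their Log2FC direction in the comparisons with CYST under each alternative run, except PKP1 and PKP3 in MAT+COL versus CYST without MAT+COL replicate 3. DSC3 had a value only in MAT+COL versus CYST, where it was negative under the alternatives in which it was tested. Genes called in MAT versus CYST numbered 175, but 708 with DESeq2, 726 with the replicate block, 331 with all 9 libraries in the fit and 5 to 227 when a library was left out; 6, 5 and 8 remained without CYST replicate 1, CYST replicate 2 and MAT replicate 1, and 27 and 103 without MAT replicates 2 and 3. In MAT+COL versus CYST the 141 became 710, 433 and 339 under the same alternatives and 3 to 166 when a library was left out, with 7, 3, 5 and 3 without CYST replicates 1 and 2 and MAT+COL replicates 1 and 2. The list genes called in MAT versus CYST numbered 2, against 16 with DESeq2, 13 with the replicate block, 8 with all 9 libraries, 7 with limma on log2(TPM + 1), 6 without a filter on low counts, and 0 to 8 when a library was left out. In MAT+COL versus CYST the 1 list gene became 12, 10, 6 and 5 under DESeq2, the replicate block, all 9 libraries and limma, 2 by the adjusted p alone, and 0 to 4 when a library was left out. MAT+COL versus MAT had 0 calls under every alternative. PKP4, near 0 in MAT+COL versus CYST, ranged from -0.0014 without CYST replicate 2 to 0.31 without MAT+COL replicate 1. The cause of these differences was not tested. Log2FC values of CSTA were 4.68 to 5.98 in MAT and 4.68 to 6.01 in MAT+COL when a library was left out, those of DSG3 4.75 to 5.52 and 3.75 to 4.80, and those of DSC2 1.18 to 1.69 and 0.93 to 1.53. In MAT+COL versus MAT, the Log2FC of DSG2, DSC2, JUP, PKP1 and CSTA changed sign without single libraries, and that of DSG3, PKP3 and DSP did not. With the replicate block, the adjusted p passed the threshold wherever a blocked value is given. In MAT+COL versus CYST it also did so for DSC2, SPRR3, EVPL, TCHH, KRT19, CGN, GRHL3, ZNF750, CTSD, CTSH and MMP9. No other gene with a printed Log2FC crossed the threshold through the block. Passing the adjusted p was not always a call by all criteria. In both comparisons with CYST, the block called no gene of the other desmosome and tight junction lists. In MAT versus CYST it called 2 hemidesmosome genes, 1 keratin, 1 adherens junction gene and 1 regulator of stratified epithelium, all higher. Of the cystatins and cathepsins it called 1 higher and 2 lower, and of the turnover genes 1 lower. The counts of 0 called in the list paragraphs are from the fit without the block. The low read counts of CSTA, DSG3 and DSC3 in CYST limit the precision of their ratios.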

Other observations

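Genes outside the set were ranked by the likeness of their pattern to each member, as Pearson r of log2 CPM over the 9 libraries among 12849 genes. The r is a description, and libraries share depth, preparation and the difference between groups. The highest of 12849 values over 9 libraries is high through the ranking itself. An r within groups uses the same libraries and adds no separate support. The 5 genes most like CSTA were CMAH (r = 0.994), MUC13 (0.993), PAQR6 (0.993), TMEM79 (0.990) and C1GALT1 (0.990). CMAH, a gene of sialic acid metabolism, averaged 7.12 TPM in CYST, 66.7 TPM in MAT and 86.3 TPM in MAT+COL. MUC13, a membrane mucin, averaged 23.99, 202.6 and 201.8 TPM, and C1GALT1, a galactosyltransferase that extends mucin-type glycans, averaged 14.2, 89.8 and 84.6 TPM. Within the groups, where the difference between groups is removed, the r with CSTA was 0.95 for CMAH, 0.90 for MUC13 and 0.81 for C1GALT1. Most of the within-group variation of CSTA lay in CYST, where its log2 CPM deviated from the mean by -1.05, 0.08 and 0.96 on 0, 3 and 4 reads, against at most 0.40 in size in the EGF libraries.

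The gene most like DSP was MSX1 (r = 0.974 over the libraries and 0.975 within groups), a homeobox gene of uterine epithelium, which averaged 153.7 TPM in CYST, 311.0 TPM in MAT and 257.8 TPM in MAT+COL. DSC2 was most like KLF6 (0.981; 0.963 within groups), PKP3 most like EPDR1 (0.987; 0.983 within groups), and JUP most like PLEK2 (0.958; 0.933 within groups). DSG3 was most like CRYBG2 (0.982), with a lower r of 0.82 within groups. DSG2 was most like FOXO4 (0.969), PKP1 most like CCDC71L (0.954) and DSC3, on its few reads, most like GRB14 (0.947). EPDR1 and FOXO4 were low genes, with averages of 0.217 and 0.188 TPM in CYST. Each member had a different leading gene.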
